A study of Homo sapiens with 4 samples.

Results

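The DNA content of 2 human artificial chromosomes (HACs), HAC 1-20 and HAC 4-65, was compared unit by unit. Each HAC was built in cultured cells from long arrays of synthetic repeat units, and every unit carried its own short identifying sequence, the position code (PC). The readout was the pair of libraries made without reverse transcriptase (RT minus), 2 of the 4 libraries of the series, in which the codes amplified came from DNA carried over in total RNA. A total of 64 CenU codes (CenU 65 and upward) belonged to the input DNA of HAC 1-20, 96 CenU codes (CenU 1 to 96) belonged to that of HAC 4-65, and 96 NCU codes (NCU 1 to 96) were shared. Reads of each code were divided by the median code of its own set in the same library, so a level of 1 is the typical unit of that HAC.

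Both libraries came from HT1080, an established human fibrosarcoma cell line, and each HAC line was a clone of it that carried HAC 1-20 or HAC 4-65. The cells of both lines were grown in the same medium, and neither library was treated with reverse transcriptase. In both lines CenU DNA and a larger amount of NCU DNA had been introduced together, and each HAC is known from 1 clone only. Each line had 1 RT minus library, and a difference between the HACs is thus a difference between 2 libraries, for which no p can be given. Genomic DNA was not analysed here, and a low level in this readout is therefore a low yield of the code and not a proof of loss.

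Human centromeres form on alphoid DNA, a tandem repeat in which longer blocks of monomers recur as higher order repeats. CENP-B binds a short motif in these repeats, the CENP-B box, and CENP-A is the histone H3 variant that marks the active centromere. CenU (centromere unit) is an alphoid repeat with intact CENP-B boxes and tetracycline operators, whereas NCU (non-centromere unit) has mutated boxes and lactose operators. When naked alphoid DNA enters a cell and forms a HAC, the input molecules are usually joined into a larger array, and units can be dropped or repeated on the way. The position codes make that visible, because otherwise the repeats could not be told apart.

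The codes are 23 bases long and differ from each other in 6 letters, shown in capitals below. For each of the CenU codes 1 to 96 an NCU code with the same 6 letters exists. The CenU and NCU codes with the same letters differ by 1 base, the fourth, shown in capitals in the first pair. In the study, the amplified NCU fragments also held a restriction site (EcoRV) that the CenU fragments lacked.
CenU 67: gggGaaaatacccagtttagggg
NCU 67: gggCaaaatacccagtttagggg

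The next codes are those that stood under 0.1 of the median in HAC 1-20, of which 3 were also low in HAC 4-65.
CenU 68: ggggaaaaTAcccACtttACggg
CenU 72: ggggaaaaAAcccAAtttAAggg
CenU 88: ggggaaaaTTcccTCtttTCggg
CenU 103: ggggaaaaTGcccTGtttTGggg
CenU 127: ggggaaaaTCcccCCtttCCggg

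The following pairs are the first and last codes of the longest runs under 0.5 of the median in HAC 4-65, CenU 20 to 24 and CenU 56 to 64.
CenU 20: ggggaaaaATcccACtttACggg
CenU 24: ggggaaaaATcccTCtttTCggg
CenU 56: ggggaaaaACcccTCtttTCggg
CenU 64: ggggaaaaACcccCCtttCCggg

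Sequences of a further kind bear on what the readout can see. The common reverse primer, UniR, lies mostly outside the unit that holds the code: 25 of its 27 bases, in capitals, match the start of the next repeat unit. A unit followed by vector instead of another unit therefore need not have a complete primer site. The codes last by number in their sets are shown with the primer for this reason. For the last CenU of HAC 1-20 a complete site was nevertheless found, as given below.
UniR: GCTATCTTACCTGAAATCTAGCTAGtc
CenU 96: ggggaaaaTTcccCCtttCCggg
NCU 96: gggcaaaaTTcccCCtttCCggg
Last CenU of HAC 1-20: ggggaaaaTCcccCGtttCGggg

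HAC 1-20 RT minus had 248904 reads matched to a code and HAC 4-65 RT minus had 713705. In HAC 1-20 the input CenU codes took 37394 reads and the NCU codes 208546. In HAC 4-65 they took 124864 and 587383 reads. The median CenU code had 506 reads in HAC 1-20 and 942 in HAC 4-65, and the median NCU code had 1978.5 and 4993 reads. A count of 0 would allow a level of up to 0.593% of the median CenU code in HAC 1-20 and 0.318% in HAC 4-65 (3 counts). All intervals below are 95% intervals and cover counting error only, since the reads carry no molecular identifiers and many can stem from the same molecule.

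The first question was which CenU codes each library still showed. A code was called absent under 0.1 of the median, low from 0.1 to under 0.5, kept from 0.5 to under 1.5 and multiplied from 1.5. HAC 1-20 had 5 absent, 0 low, 43 kept and 16 multiplied codes among 64. HAC 4-65 had 12 absent, 11 low, 43 kept and 30 multiplied codes among 96. Thus 92.2% of the CenU codes of HAC 1-20 and 76% of those of HAC 4-65 stood at 0.5 of the median or more. The multiplied codes were 25% of the codes and 42.3% of the CenU reads in HAC 1-20, against 31.2% of the codes and 65.4% of the reads in HAC 4-65. With multiplied set from 2 instead of 1.5, HAC 1-20 had 3 multiplied codes and HAC 4-65 had 20.

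**Figure D1:**
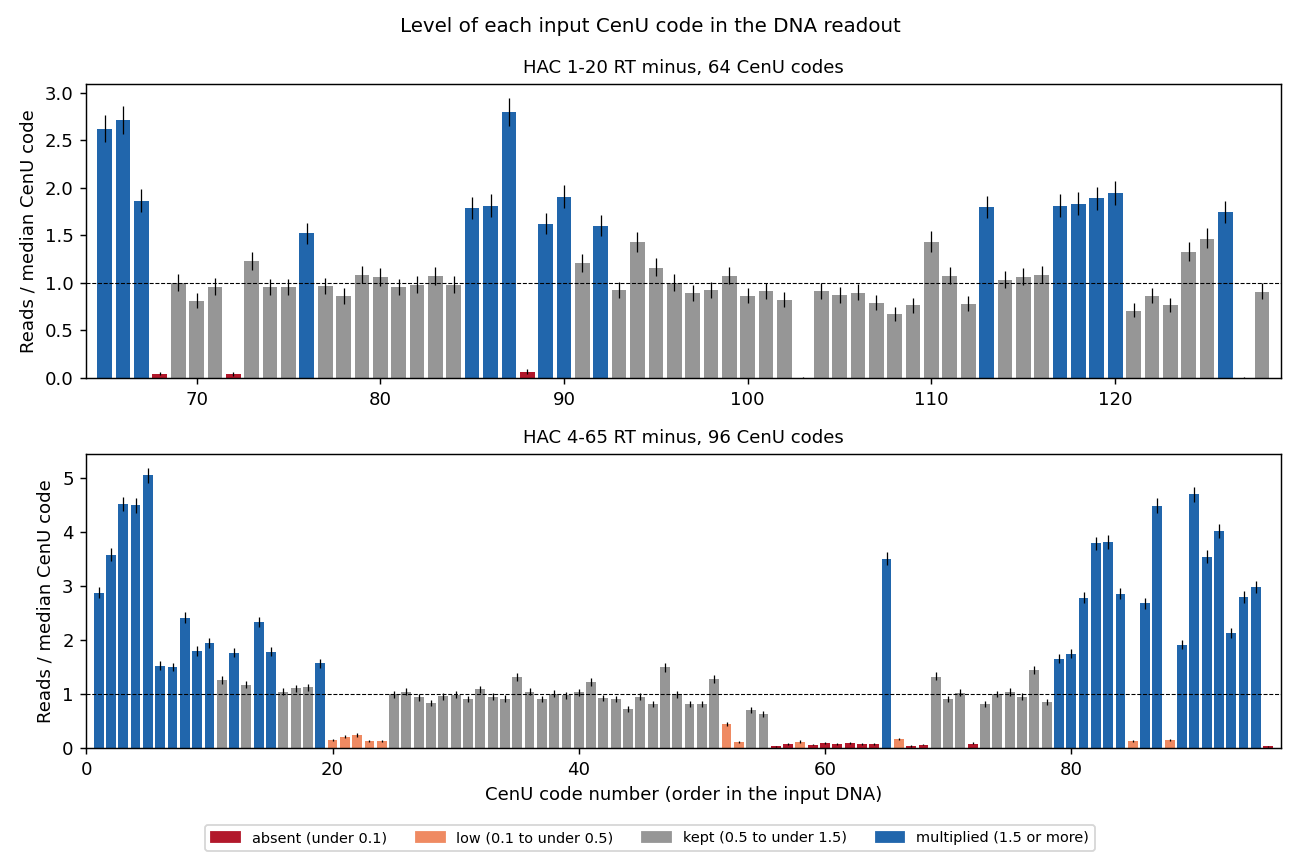
Reads of each input CenU code divided by the median input CenU code of the same library (vertical axis) against the code number in the input DNA (horizontal axis), for HAC 1-20 (upper) and HAC 4-65 (lower). Bars are coloured by class, whiskers are exact Poisson 95% intervals of the count and the dashed line marks the median; HAC 1-20 shows 5 isolated gaps and a highest level of 2.80, whereas HAC 4-65 shows wide gaps around CenU 20 to 24 and 56 to 64 and a highest level of 5.06.

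In HAC 1-20 the absent codes were isolated. CenU 68 had 22 reads, CenU 72 had 21 and CenU 88 had 34. CenU 103 and CenU 127 had 2 reads each, a level of 0.00395 (0.000479 to 0.0143). CenU 127 nevertheless occurs in the assembled HAC 1-20 sequence, so absent is here a class of this readout and not a loss. None of the 5 codes had an absent neighbour, so the longest gap was 1 code, and 6 runs of codes that were not absent remained, the longest with 23 codes (CenU 104 to 126). The lowest code outside the gaps was at 0.672 of the median, and no code lay between these levels.

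The kept codes of HAC 1-20 formed a flat base. They ranged from 340 to 742 reads with a median of 484, and the SD of their log2 reads was 0.26, where counting alone gives 0.066. The longest kept runs were CenU 93 to 102, with 10 codes, and CenU 104 to 112, with 9 codes at a median level of 0.872. Just under the limit of 1.5 was CenU 125, at a level of 1.47, and just above it was CenU 76, at 1.52.

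The multiplied codes of HAC 1-20 stood in short blocks. CenU 65, the first unit of its input, had 1327 reads, CenU 66 had 1371 and CenU 67 had 941, ahead of the gap at CenU 68. CenU 85 to 87 formed the next block, and CenU 87 was the highest code of this HAC, with 1416 reads, a level of 2.80 (2.65 to 2.95). This block also ended at a gap, CenU 88, beyond which CenU 89 and 90 were multiplied, CenU 90 with 964 reads, a level of 1.91 (1.79 to 2.03). CenU 117 to 120 ranged only from 916 to 983 reads, the flattest of the blocks, and CenU 120 was the highest of these, at a level of 1.94. CenU 76, 92, 113 and 126 were multiplied without a multiplied neighbour. The last unit by number had 460 reads, a level of 0.909, whereas CenU 127 was absent.

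A change between neighbours was called a step when both codes were not absent, the counts differed at least 1.5-fold and the Wald interval of their ratio left out 1. HAC 1-20 had 13 steps, 8 upward and 5 downward. The largest were CenU 120 to CenU 121, a 2.74-fold fall, and CenU 112 to CenU 113, a 2.30-fold rise. The rule leaves out the gap edges of HAC 1-20, such as CenU 87 with 1416 reads beside CenU 88 with 34. It counts edges of low codes, which only HAC 4-65 had, so the largest steps are not comparable between the HACs. HAC 4-65 had 26 steps, 13 in each direction. CenU 87 to CenU 88 fell 30.9-fold, CenU 84 to CenU 85 fell 22.7-fold and CenU 65 to CenU 66 fell 21.6-fold, and CenU 19 to CenU 20 fell from 1478 to 134 reads. Upward, CenU 85 to CenU 86 rose 21.2-fold, CenU 88 to CenU 89 rose 13.2-fold and CenU 24 to CenU 25 rose 7.92-fold. These are borders along the input order and not along the HAC, whose order was not used.

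HAC 4-65 was absent or low over whole stretches of its input. The 23 codes under 0.5 of the median fell into 8 runs, of which 4 were isolated codes and the longest held 9. CenU 20 to 24 had 134, 194, 222, 121 and 118 reads, all of them low. CenU 52 had 417 reads and CenU 53 had 97, and they were the only low codes between CenU 25 and CenU 55. CenU 56 to 64 had 27, 69, 108, 57, 87, 71, 86, 71 and 63 reads, so that all but the low CenU 58 were absent. CenU 66 had 153 reads, CenU 67 had 30 and CenU 68 had 56. The isolated codes were CenU 72 with 77 reads, CenU 85 with 119, CenU 88 with 137 and CenU 96, the last unit, with 27. CenU 65, which lies between the gaps 56 to 64 and 66 to 68, nevertheless had 3306 reads, a level of 3.51 (3.39 to 3.63).

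The low and absent codes of HAC 4-65 formed no sharp pair of groups. Under 0.5 of the median their levels ran from 0.0287 to 0.443, and with absent set under 0.2 instead of 0.1 the absent codes were 20 and the low codes 3. The low codes other than CenU 52 had at most 222 reads, against 591 reads in the lowest kept code.

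The unbroken middle of HAC 4-65 was CenU 25 to 51. All 27 codes were kept, with 681 to 1406 reads and a median level of 0.959, the longest run of kept CenU codes in either HAC. The kept codes of HAC 4-65 as a whole had 591 to 1406 reads with a median of 929, and the SD of their log2 reads was 0.26 (0.048 from counting). Just under the limit of 1.5 was CenU 47, with 1406 reads, and just above it CenU 7, with 1416.

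The multiplied codes of HAC 4-65 lay toward both ends of the input. At the near end CenU 1 to 10 were all multiplied, and CenU 5 had the highest level of this HAC, 5.06 (4.91 to 5.20), with 4763 reads. The sequence listed for CenU 1, the first unit, had 2714 reads, CenU 3 had 4261 and CenU 4 had 4239. From CenU 6 to 19 the levels were lower, from 1.05 to 2.42, with 9 of 14 codes multiplied. At the far end CenU 79 to 84 had 1560 to 3601 reads, CenU 86 and 87 had 2524 and 4234 reads, and CenU 89 to 95 had 1806 to 4434 reads. CenU 90 was the second highest code, at a level of 4.71 (4.57 to 4.85), and CenU 87 stood at 4.49 (4.36 to 4.63). The far block was broken at CenU 85 and CenU 88, 2 of the isolated low codes.

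Levels were also set against the median kept code of the same library, 484 reads in HAC 1-20 and 929 in HAC 4-65, and rounded to the nearest whole multiple. In HAC 1-20, 42 of the 59 kept or multiplied codes were nearest 1 multiple, 14 nearest 2 and 3 nearest 3 (CenU 65, 66 and 87). In HAC 4-65, 42 of 73 codes were nearest 1 multiple, 14 nearest 2, 6 nearest 3, 6 nearest 4 and 5 nearest 5 (CenU 3, 4, 5, 87 and 90). In HAC 1-20, 47 of 59 codes lay within 0.25 of a whole multiple, and in HAC 4-65 51 of 73 did. Codes nearest 1 are favoured, since the scale is the median kept code. A window of 0.25 on either side is also wide, so these counts do not show that the levels are whole multiples. The multiples added up to 79 over the 59 codes of HAC 1-20 and to 137 over the 73 codes of HAC 4-65. A multiple is a ratio of reads within a competitive PCR and not a copy number.

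The 32 CenU codes 65 to 96 were in both inputs and allow the same units to be compared in both HACs. A code was called higher in a HAC when its level differed at least 2-fold from that in the other and the interval of the log2 ratio left out 0, after a pseudocount of 0.5 reads. Of the 32 codes, 4 were higher in HAC 1-20 (12.5%), against 14.8% of all CenU and NCU codes in both inputs. A further 10 were higher in HAC 4-65 (31.2%), against 27.3% of all codes, and 18 were neither. The shares were near those over all codes.

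**Figure D2:**
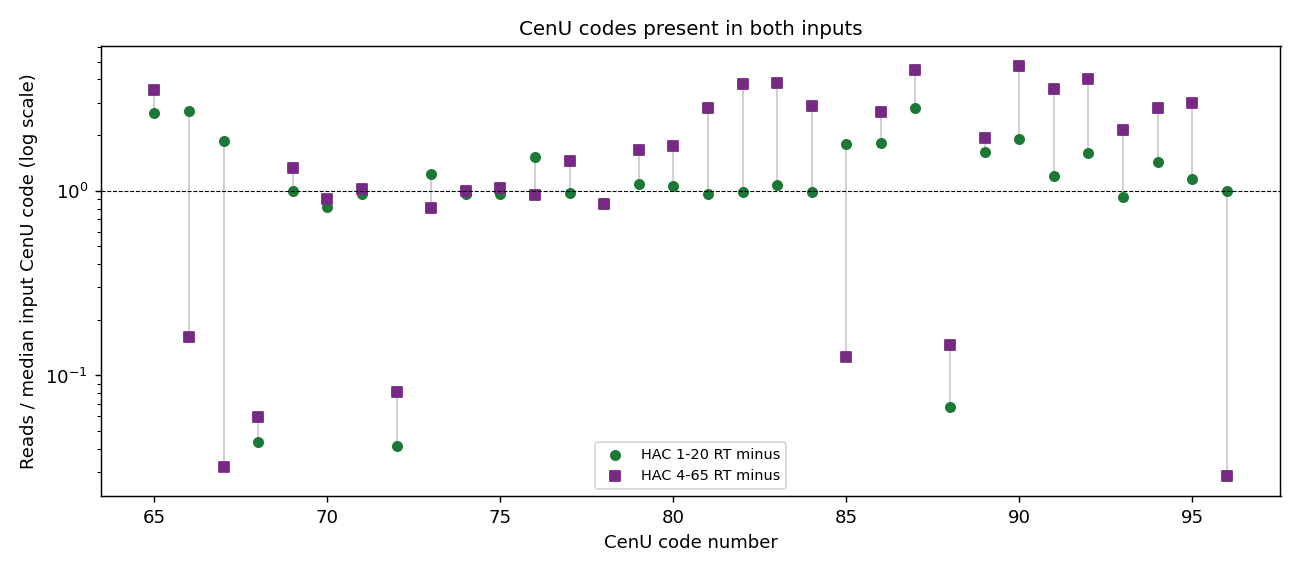
Level of the 32 CenU codes present in both inputs, as reads over the median input CenU code of the same library on a log axis, against code number, with circles for HAC 1-20 and squares for HAC 4-65 and a grey line joining the same code. CenU 70, 71, 74, 75 and 78 nearly coincide, CenU 66, 67, 85 and 96 lie far lower in HAC 4-65, and CenU 81 to 84 and 90 to 95 lie higher in HAC 4-65.

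The codes higher in HAC 1-20 were absent or low in HAC 4-65. CenU 67 had 941 reads in HAC 1-20 and 30 in HAC 4-65, a log2 ratio of levels of 5.84 ± 0.27 (SE from counting). CenU 96 had 505 and 27 reads (log2 ratio 5.10 ± 0.28), CenU 66 had 1371 and 153 (4.06 ± 0.12) and CenU 85 had 904 and 119 (3.82 ± 0.14). CenU 96 is the last unit of the input of HAC 4-65 but lies inside that of HAC 1-20. The part of the UniR site in its difference was not tested. CenU 66, 67 and 85 were multiplied in HAC 1-20. The next code, CenU 76, had 769 and 897 reads and a log2 ratio of 0.67 ± 0.07, short of the 2-fold limit.

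The codes higher in HAC 4-65 lay in the far block. The largest differences were CenU 82, with 496 reads in HAC 1-20 and 3574 in HAC 4-65 (log2 ratio -1.95 ± 0.07), CenU 83 (541 and 3601 reads, -1.84 ± 0.07) and CenU 91 (611 and 3344 reads, -1.55 ± 0.06). CenU 81 (483 and 2628 reads) and CenU 84 (496 and 2697 reads) both had a log2 ratio of -1.55 ± 0.07. All 6 codes from CenU 79 to 84 were kept in HAC 1-20, at levels of 0.955 to 1.09, and all 6 were multiplied in HAC 4-65, at 1.66 to 3.82. CenU 88, with 34 and 137 reads, was counted here although it was under 0.5 of the median in both HACs.

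Class by class, 8 shared codes were kept in both HACs (CenU 69, 70, 71, 73, 74, 75, 77 and 78), 6 were multiplied in both (CenU 65, 86, 87, 89, 90 and 92) and 10 were kept in HAC 1-20 and multiplied in HAC 4-65. CenU 68 and the sequence listed for CenU 72 were absent in both, and CenU 88 was absent in HAC 1-20 and low in HAC 4-65. CenU 76 alone was multiplied in HAC 1-20 and kept in HAC 4-65. Across the 32 codes the correlation of the levels of both HACs was 0.39 (Pearson) and 0.36 (Spearman), a description only, since the codes share their libraries and their neighbours.

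CenU 72 has a second reading. In the list of codes used to match reads, CenU 1 and CenU 72 have the sequences shown here, but in the list of primers that made the units these sequences are exchanged, and each stands in the primer of the other unit.
CenU 1: ggggaaaaTAcccTCtttTCggg
CenU 72: ggggaaaaAAcccAAtttAAggg
In HAC 1-20, whose input held no CenU 1, the sequence listed for CenU 1 had 700 reads, a level of 1.38 (1.28 to 1.49), and the sequence listed for CenU 72 had 21. In HAC 4-65 the first had 2714 reads and the other 77. The reference entry of CenU 1 is 82 bases long, against 67 for CenU 72. If the primer list gives the true order, CenU 72 was kept in HAC 1-20 and multiplied in HAC 4-65, and CenU 1 was absent from HAC 4-65. The absent codes of HAC 1-20 were then 4 instead of 5, the runs not absent 5 instead of 6, and the absent codes of HAC 4-65 were 12 under either reading. The other codes outside the input of HAC 1-20 had 4 to 50 reads. By its 6 letters the sequence listed for CenU 1 matches NCU 72, and that listed for CenU 72 matches NCU 1. Which list is right was not tested.

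The reads on codes that a HAC should not hold give the background of the classes. In HAC 1-20 the 63 codes CenU 2 to 64 lay outside its input and had 4 to 50 reads with a median of 17, which is 3.36% of the median input code. CenU 68, 72 and 88 thus lay within the range of codes outside the input, and CenU 103 and 127 lay below it. In HAC 4-65 the 32 codes from CenU 97 upward had 2 to 10 reads with a median of 5, and each of its absent codes had more than that, from 27 to 87.

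These backgrounds are not alike, because CenU codes over 96 have no NCU code with the same letters. Expressed over the reads of the NCU code that differs by 1 base, the codes outside the input of HAC 1-20 held 0.226% to 2.34%, with a median of 0.727%. CenU 88 of HAC 1-20 was just above that range, at 2.49%. In HAC 4-65, 12 of the 22 codes under 0.5 of the median other than CenU 96 were at or under 2.34% of their NCU code, and 10 were above. The highest were CenU 52 with 16.3% and CenU 22 and CenU 21, both of the run 20 to 24. CenU 96 of HAC 4-65 is left out, because its NCU code, NCU 96, had only 97 reads itself. Kept and multiplied codes had a median of 35.2% in HAC 1-20 and 23.7% in HAC 4-65. How many reads of a low code came from its NCU code was not tested.

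**Figure D3:**
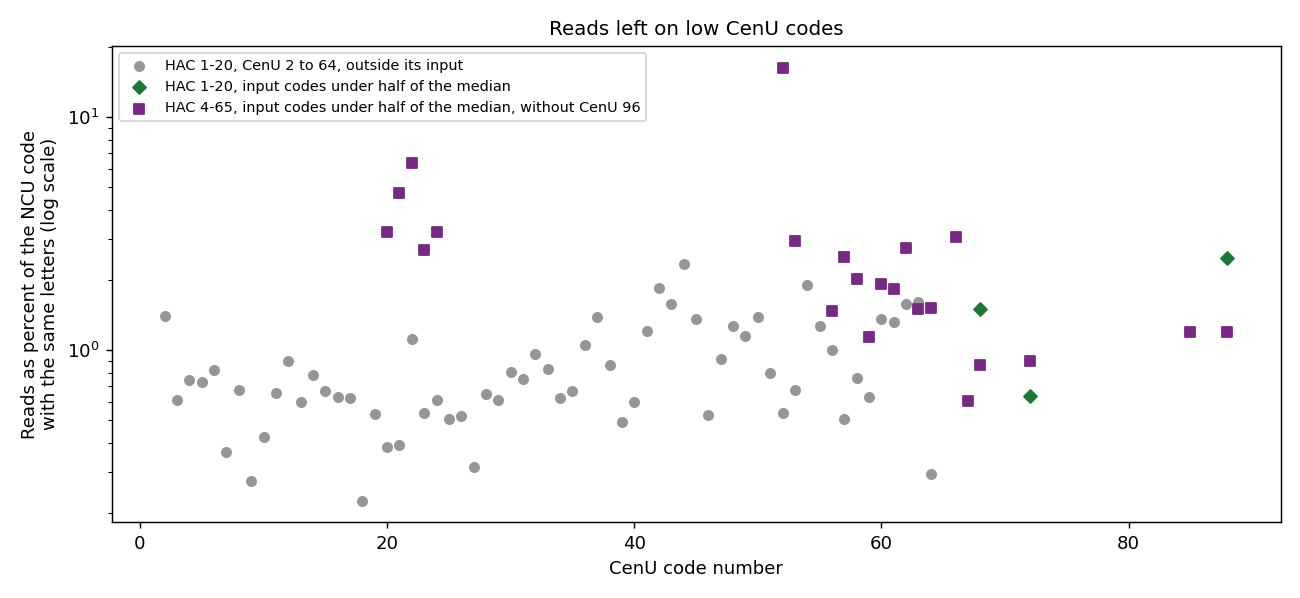
Reads of CenU codes as a percent of the reads of the NCU code with the same letters (log axis) against CenU code number: grey circles are CenU 2 to 64 in HAC 1-20, outside its input, diamonds the input codes of HAC 1-20 and squares the input codes of HAC 4-65 under 0.5 of the median. The grey circles range from 0.226% to 2.34%, and the squares of CenU 20 to 24 and CenU 52 lie above all of them.

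The last codes of the sets differed. NCU 96 was below all other NCU codes: it had 21 reads in HAC 1-20, a level of 0.0106 (0.00657 to 0.0162), and 97 reads in HAC 4-65, a level of 0.0194 (0.0158 to 0.0237), and it was the only absent NCU code in either HAC. CenU 96 is the last unit of the input of HAC 4-65, where it had 27 reads, but lies inside the input of HAC 1-20, where it had 505. In the part of the assembled HAC 1-20 sequence used here, a complete UniR site followed the last CenU by number. CenU 127 and NCU 96 were present in that sequence too, but without a complete UniR site after them. The part of the primer site in these levels was not tested.

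NCU DNA made up the rest of both HACs, and its question was whether the input stayed whole. The 95 codes NCU 1 to 95 were all above 0.1 of the median in both HACs, so no internal NCU unit was absent. HAC 1-20 had 12 low, 57 kept and 26 multiplied NCU codes, and HAC 4-65 had 3 low, 61 kept and 31 multiplied. These classes are relative to the median NCU code, 1978.5 reads in HAC 1-20 and 4993 in HAC 4-65. Each low NCU code still had more reads than the median kept CenU code of its library, 484 and 929. Low is therefore not the same for NCU as for CenU, and need not be a loss. The lowest after NCU 96 were NCU 44 with 598 reads and NCU 63 with 682 in HAC 1-20, and NCU 56 with 1842 and NCU 54 with 1902 in HAC 4-65. The SD of log2 reads over NCU 1 to 95 was 0.74 in HAC 1-20 and 0.71 in HAC 4-65, while counting alone gives 0.035 and 0.021. Over the CenU codes that were not absent it was 0.51 and 1.35, below NCU in HAC 1-20 and above it in HAC 4-65. That set holds the 11 low codes of HAC 4-65, whereas HAC 1-20 had no low code. The CenU values are thus not comparable between the HACs. In HAC 4-65 the SD was 0.26 for kept and 0.56 for multiplied CenU codes.

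**Figure D4:**
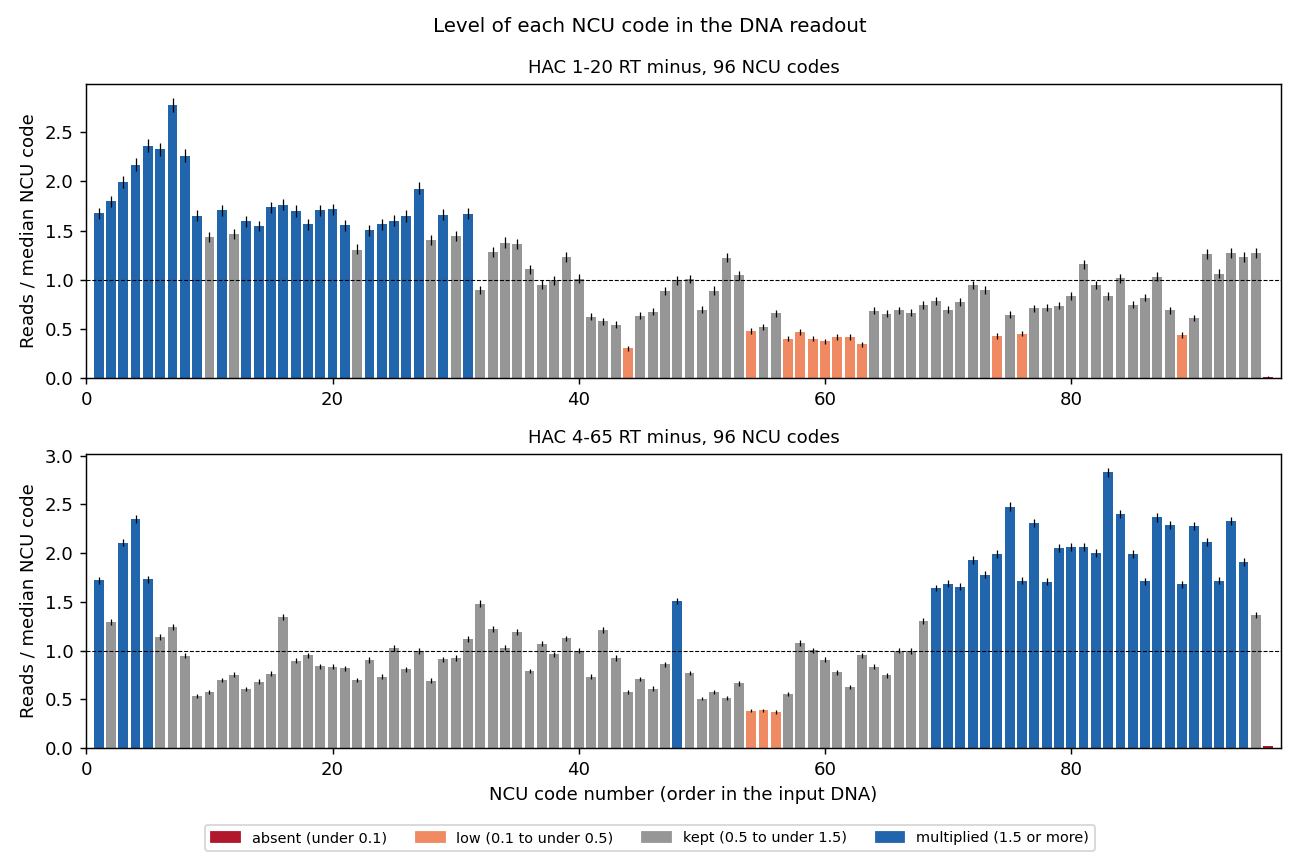
Reads of each of the 96 NCU codes divided by the median NCU code of the same library (vertical axis) against code number (horizontal axis), for HAC 1-20 (upper) and HAC 4-65 (lower), coloured by class with exact Poisson 95% intervals. Levels are high over NCU 1 to 31 in HAC 1-20 and over NCU 69 to 94 in HAC 4-65, and NCU 96 is near 0 in both.

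Most multiplied NCU codes lay at the near end in HAC 1-20 and at the far end in HAC 4-65. In HAC 1-20 all 26 of them were among NCU 1 to 31, which had 2586 to 5495 reads, and none of NCU 32 to 95 reached 1.5. The highest were NCU 7 with 5495 reads, a level of 2.78 (2.70 to 2.85), NCU 5 with 4678 and NCU 6 with 4602. The border was the step from NCU 31 to NCU 32, a 1.87-fold fall. NCU 57 to 63 formed a run of 7 low codes with 682 to 921 reads.

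In HAC 4-65 the long block was at the far end. NCU 69 to 94 were 26 multiplied codes in a row, with 8197 to 14138 reads, and 5 of NCU 1 to 68 were multiplied. Of these, NCU 1, 3, 4 and 5 lay at the near end, which was multiplied in HAC 1-20 too, at levels of 1.72, 2.11, 2.35 and 1.73. The highest were NCU 83 with 14138 reads, a level of 2.83 (2.79 to 2.88), NCU 75 with 12371 and NCU 84 with 11976. NCU 54 to 56 were the low run, with 1842 to 1919 reads, whereas NCU 57 to 63, low in HAC 1-20, were kept here at a median level of 0.907.

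Over blocks of 16 codes the median NCU level of HAC 1-20 was 1.75 for NCU 1 to 16, 1.58 for 17 to 32, 0.971 for 33 to 48, 0.497 for 49 to 64, 0.713 for 65 to 80 and 0.978 for 81 to 96. In HAC 4-65 the same blocks had medians of 1.04, 0.899, 0.980, 0.645, 1.71 and 2.03. The block 49 to 64 was the lowest in both HACs, and in HAC 4-65 it was also the lowest block of CenU, at a median of 0.0977. Neighbouring NCU codes had levels with a Pearson r of 0.90 in HAC 1-20 and 0.84 in HAC 4-65 (94 pairs each), and neighbouring CenU codes 0.23 (63 pairs) and 0.60 (95 pairs). The NCU levels of the HACs had an r of 0.0022 and a rho of 0.06 over 96 codes. Of the 96 NCU codes, 15 were higher in HAC 1-20 by at least 2-fold (15.6%, against 14.8% of all codes in both inputs), all from NCU 6 to 52. A further 25 were higher in HAC 4-65 (26%, against 27.3% of all codes), all from NCU 42 to 90. Both shares were near those over all codes.

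Levels were also set beside the letters of the codes. NCU codes with the letters of CenU 20 to 24 had levels of 0.699 to 0.902 in HAC 4-65, and those with the letters of CenU 56 to 64 had 0.369 to 1.07. The same-letter CenU and NCU levels had an r of 0.55 in HAC 4-65 (96 codes) and -0.17 in HAC 1-20 (32 codes). The number of G or C among the 6 letters had an r with CenU level of -0.25 in HAC 1-20 (64 codes) and -0.18 in HAC 4-65 (96 codes). Each HAC had 8 CenU codes with 5 such letters, not the same codes. Their median level was 0.788 in HAC 1-20 and 0.408 in HAC 4-65, the lowest by number of such letters in each HAC. Absent or low among them were 1 in HAC 1-20, CenU 127, and 4 in HAC 4-65. These 4 were CenU 59, 60, 63 and 64, all within the run 56 to 64. The 8 NCU codes with 5 such letters had a median level of 0.471 in HAC 1-20 and 0.914 in HAC 4-65. Odd and even units, which were made with different restriction enzymes, were 22 and 21 of the kept codes and 8 and 8 of the multiplied codes in HAC 1-20, and 23 and 20 of the kept and 16 and 14 of the multiplied codes in HAC 4-65. The absent codes were 2 odd and 3 even in HAC 1-20 and 5 odd and 7 even in HAC 4-65, and the low codes of HAC 4-65 were 4 odd and 7 even. The part of base composition in the levels was not tested.

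Finally, the balance of both kinds of unit was compared. The median CenU code over the median NCU code was 0.256 (0.232 to 0.282) in HAC 1-20 and 0.189 (0.176 to 0.202) in HAC 4-65, so a typical NCU code had 3.91 and 5.30 times the reads of a typical CenU code. The intervals do not overlap, but they treat each median as a single count in 1 library a side. The spread between codes is left out of them, so they do not weigh the difference. By mean reads per code instead of medians the ratio of HAC 4-65 was 0.213, above its interval. These are proportions within the competitive PCR, so they give no amount of DNA per cell.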

How the data were processed

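Codes had been amplified together by competitive PCR and sequenced. Per the labels and the methods of the study, the authors removed adapter and other unwanted sequence (cutadapt 4.0), assigned reads to codes by Bowtie against the code list, and took counts from SAMtools idxstats. The matching options are not given in the sources used here. What the authors deposited are raw counts for each reference (128 T and 384 L references), not normalized, and 6.48% (HAC 1-20) and 6.26% (HAC 4-65) of reads in the files matched no code. T references were read as CenU and L references 1 to 96 as NCU, from their numbers. The RT plus libraries were not used.

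Levels, classes, runs, steps and ratios were computed as given in the text, with exact Poisson intervals for single codes and Wald intervals for ratios, in Python 3.11.15 (numpy 2.4.6, scipy 1.17.1, matplotlib 3.10.9). The error of the median was left out of the intervals of single codes. Named in each HAC were every absent and low CenU code, the 5 highest CenU codes, the first and last code, the 3 lowest and 3 highest NCU codes, the 5 shared CenU codes differing most each way, and CenU 1 and CenU 72. Other codes were named to give the ends of runs or steps. Codes, classes and limits were chosen with earlier results of these data known. Whole multiples and leaving out the next to last CenU code were added after the values were seen. The script was tested on simulated counts. Sequences came from the tables of the study.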

Additional observations from a re-analysis of the deposited data

Results flagged for a closer look

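Reads on the 288 L references numbered above 96, which belong to neither set of codes compared, were looked at again because they lie outside the comparisons and exceed the limit that a count of 0 allows. They took 1126 reads in HAC 1-20 RT minus, 0.452% of the matched reads, and 1287 reads in HAC 4-65 RT minus, 0.180%. In HAC 1-20 they were uneven: L 117 alone had 399 reads and the next 27, and CenU 117 had 916 reads in the same library. In HAC 4-65 the highest was L 120 with 55 reads and the next had 40, while L 117 had 33. The sequences of these references were not used here, and the source of their reads was not tested.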

How the results depend on the processing

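Over 28 results and 13 settings, 157 of 178 alternatives left the value within 1.5 times of, or within the error of, that reported. Some alternatives could not move the value. Leaving out the next to last CenU code touched HAC 1-20 only, and a new limit for multiplied codes leaves the absent codes as they are. The tally therefore does not measure how firm the results are. With absent set under 0.2, HAC 4-65 had 20 absent and 3 low CenU codes, 9 runs not absent, a longest run of 28 and 16 steps. Scaled to the mean code, HAC 4-65 had 7 low CenU codes, a longest run of 28, 12 low and 19 multiplied NCU codes. With multiplied set from 2, HAC 1-20 had 3 multiplied CenU codes. Steps of at least 2-fold were 2 (CenU) and 4 (NCU) in HAC 1-20, and 12 and 0 in HAC 4-65. With the range of kept NCU codes narrowed by 0.25 at each end, low NCU codes were 33 in HAC 1-20 and 22 in HAC 4-65. Without the last code, absent NCU codes were 0 in HAC 1-20 and 0 in HAC 4-65, since that code was the only absent one. The CenU over NCU ratio of HAC 4-65 was 0.213 by mean reads per code. At 1.5-fold, 28 shared NCU codes were higher in HAC 1-20 and 39 in HAC 4-65. Apart from settings that redefine a class or limit, the cause was not tested. With 1 library a side, HAC and library cannot be told apart. No paired analysis was possible because each HAC line had 1 library and the labels carry no replicate numbers.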
